A study of Arabidopsis thaliana with 4 samples.

Results

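The genes described here encode PR1-like proteins, the secreted plant members of the CAP superfamily, in Arabidopsis roots after 5 hours at low or normal oxygen. They are 10 loci of that family, and each had 1 probe set that the platform's probe table assigns to it alone. They were counted among the 13513 probe sets with a single named gene and the 22746 probe sets tested. The list was chosen by family with results of these arrays known, and it was built around AT4G33730, which was selected on its fall at low oxygen. That change is therefore given as a description with no test. The other 9 were listed as relatives of it, and their calls describe these genes but do not support a statement about the family.

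CAP proteins take their name from cysteine-rich secretory proteins, the insect venom allergen antigen 5 and the plant pathogenesis-related protein PR1. PR1 accumulates in the apoplast during salicylic acid defence and is the usual marker of that response, and a conserved C-terminal stretch of some PR1-like proteins is cut off and acts as a signalling peptide, called CAPE, that was first found in tomato. CAP domains from several organisms bind sterols. Many of the Arabidopsis genes are not defence-induced, and for most of them no function has been settled.

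Roots came from 3-week-old seedlings of the laboratory accession Col-0, and each of the 2 replicates per group was a pool of 5 seedlings from the same dish. Seedlings of both groups had spent 24 hours in liquid medium with 3% sucrose after growth on agar, and both groups then stood under foil in canisters for 5 hours. The low oxygen canisters were flushed with gas holding 0.1% oxygen and sealed, and the normal oxygen canisters were left unsealed, so flushing and sealing cannot be told apart from oxygen. The values are log2 RMA expression values of 4 one-colour Affymetrix arrays, with array medians between 6.33 and 6.36, and the small number of arrays limits the precision. A probe set's value also depends on its probes, so values are compared between arrays and not between genes. RMA gives no detection call, and values near the lower end of the scale carry little signal over background.

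Of the 10 genes, 5 gave clear signal in these roots and 5 stayed below 5 on all 4 arrays. At low oxygen AT4G33730 had the largest difference of the 10, and AT4G30320, AT4G31470 and PR-1-LIKE (AT2G19990) fell. AT4G33720, the last of the 5 with clear signal, did not pass the test, and the 5 dim genes did not either. In limma's test across all probe sets, with Benjamini-Hochberg adjustment at 0.05, 3 of the 9 tested genes were lower and 0 were higher. Of all probe sets 33.4% passed in either direction, 17.6% as lower and 15.8% as higher. At an unadjusted p under 0.05, 5 of the 9 were lower and 0 higher. Every probe set that passed the adjusted test also passes that threshold, so the shares above are only lower bounds for it. Nothing is read from these counts, since the list was drawn up with this comparison in view.

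AT4G33730 is known as the gene of the precursor of a CAPE peptide that restrains salt tolerance in Arabidopsis. At normal oxygen the arrays read 10.02 and 9.75, and at low oxygen 6.26 and 5.75. The groups lay far apart, and the lower low oxygen value came from replicate 2. The group means were 9.89 ± 0.19 (SD, n = 2) and 6.00 ± 0.36, a log2 change of -3.89 (SE 0.18), or 14.8-fold on the RMA scale. It was the fifth largest fall (rank 5) among the probe sets with a single named gene and rank 8 among all probe sets. In whole roots, fewer cells of a type and less RNA per cell cannot be told apart, for this gene and the others below.

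AT4G30320, a CAP gene with no settled function, stood at 10.14 and 10.17 at normal oxygen and at 7.85 and 7.69 at low oxygen. Both groups were tight and lay more than 2 log2 units apart. It fell 5.22-fold (log2 change -2.38, SE 0.10, limma adjusted p = 1.8e-05).

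AT4G31470, likewise a CAP gene without a settled role, had values of 8.24 and 7.98 at normal oxygen and 6.67 and 6.47 at low oxygen. The groups did not overlap, and the spread within each was small beside the distance between them. It fell 2.92-fold (log2 change -1.55, SE 0.13, limma adjusted p = 2.0e-04).

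PR-1-LIKE is named for its similarity to PR1, but its expression is reported not to respond to salicylic acid. Its values were 9.37 and 9.53 at normal oxygen and 8.33 and 7.71 at low oxygen. The low oxygen arrays differed from each other, with an SD of 0.44 against 0.11 at normal oxygen, yet both were below both normal oxygen arrays. It fell 2.70-fold (log2 change -1.43, SE 0.20, limma adjusted p = 0.0017), and without low oxygen replicate 2 the change was -1.12.

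AT4G33720, the neighbour of AT4G33730 on the chromosome, was bright on every array, at 12.13 and 12.35 at normal oxygen and 12.03 and 11.43 at low oxygen. The groups did not overlap, but low oxygen replicate 1 lay close to the normal oxygen arrays. The log2 change was -0.51 (SE 0.20, limma adjusted p = 0.1006). It rested on 1 array, since the change was -0.80 and passed without low oxygen replicate 1 (adjusted p = 0.0174) and was -0.21 without low oxygen replicate 2.

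**Figure D1:**
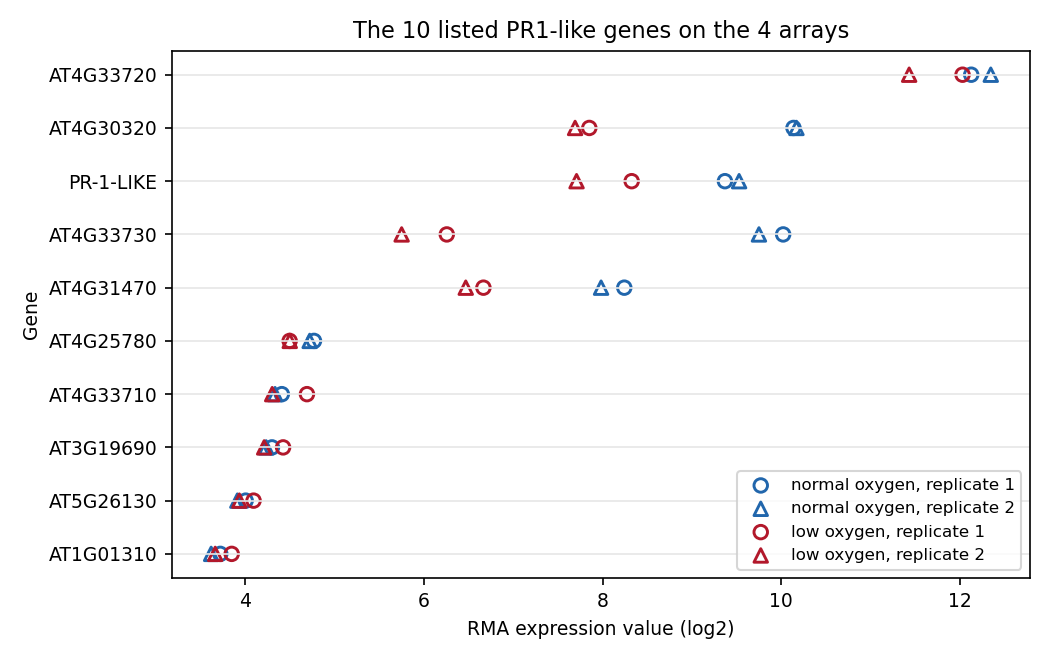
RMA expression values (log2, horizontal axis) of the 10 listed PR1-like genes (vertical axis, ordered by mean), with 1 point per array, blue for normal and red for low oxygen, circles for replicate 1 and triangles for replicate 2. AT4G33730 goes from 10.02 and 9.75 to 6.26 and 5.75, while the 5 lowest genes stay below 5 on every array.

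The 5 dim genes were AT4G25780, AT4G33710, AT3G19690, AT5G26130 and AT1G01310, all CAP genes with no settled role in roots. Their values lay between 3.62 and 4.77 over all arrays, where the lower quartile of the 4 arrays was 4.45 to 4.48. AT4G25780 stood at 4.77 and 4.72 at normal oxygen and nearly level with each other at low oxygen, with a mean of 4.496. Its groups did not overlap, but the log2 change of -0.25 did not pass (SE 0.09, limma adjusted p = 0.0930).

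AT4G33710 had values of 4.41 and 4.33 at normal oxygen and 4.69 and 4.30 at low oxygen, so the groups overlapped. AT3G19690 had 4.30 and 4.23 at normal oxygen and 4.42 and 4.21 at low oxygen. These genes and AT5G26130 and AT1G01310 had log2 changes between 0.05 and 0.12, with limma adjusted p from 0.5955 to 0.8020. Background may mask part of a change at such low values, so these results do not show that the genes were steady.

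The groups did not overlap for 6 of the 10 genes, against 64.5% of all probe sets. The 6 include AT4G33730, which was selected on its fall. On the low oxygen arrays, replicate 2 was below replicate 1 for 9 of the 10, with a median difference of -0.21. Over all probe sets 57.8% were lower on that replicate, with a median difference of -0.03. The 3 calls held without either low oxygen array, and the part of this replicate difference in the sizes was not tested.

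The family also has genes outside the list, which its rule did not take in. Of 12 further Arabidopsis CAP loci, 9 had a probe set that the probe table assigns to them alone. By limma's test 4 of these 9 fell while 0 rose, where 17.6% of all probe sets were called lower and 15.8% higher. One of the 4, AT4G07820, only just passed, as described below. The counts were the same at an unadjusted p under 0.05, for which the shares of all probe sets above are only lower bounds. PR1 itself, PRB1 and AT5G57625 were not analysed here. The median log2 change of the 9 was -0.23, and that of all probe sets was -0.0018. The 9 listed genes other than AT4G33730 had a median of -0.25.

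The largest fall among them was that of AT4G25790, from 10.25 and 9.91 at normal oxygen to 8.02 and 7.51 at low oxygen. Both low oxygen arrays were well below both normal oxygen arrays, a 4.97-fold fall (log2 change -2.31, SE 0.19, limma adjusted p = 1.9e-04). AT2G19970 stood at 11.67 and 11.69 at normal oxygen and at 10.73 and 10.50 at low oxygen. It fell 2.09-fold, with hardly any spread at normal oxygen (limma adjusted p = 5.4e-04).

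AT5G66590 fell less, from 9.40 and 9.24 to 8.75 and 8.63 (log2 change -0.63, SE 0.11, limma adjusted p = 0.0045). AT4G07820 went from 9.09 and 8.99 to 8.75 and 8.69, and its change of -0.32 only just passed (limma adjusted p = 0.0499). That call was lost under 9 of 10 alternatives, leaving out any single array included, and its adjusted p ranged from 0.0285 to 0.1914. AT1G50060, in contrast, gave clear signal and similar values on all arrays, 9.05 and 9.10 at normal oxygen and 9.05 and 8.93 at low oxygen (log2 change -0.09, SE 0.10, limma adjusted p = 0.6005).

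The other 4 were dim, with log2 changes from -0.23 to 0.03. AT2G19980 had the change of -0.23 (limma adjusted p = 0.1253), from 4.15 and 4.03 to 3.86 and 3.84. AT1G50050 was at 4.98 and 5.11 at normal oxygen and 5.03 and 5.02 at low oxygen, and AT3G09590 and AT5G02730 stayed below 5 on all arrays. AT2G19980 was lower on both low oxygen arrays than on both normal oxygen arrays and passed with a trended prior alone (adjusted p = 0.0462).

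Set together, the 19 measured CAP genes formed a bright and a dim set with no gene between a mean of 5.04 and one of 7.34 over the 4 arrays. Of the 10 bright genes, 9 were tested and 7 of these were lower at low oxygen, with 2 not passing and 0 higher. Among all probe sets with a mean of at least 6, 24.6% were called lower. Among the 9 tested, changes ran from -0.09 for AT1G50060 to -2.38 for AT4G30320. Of the 9 dim genes 0 passed in limma's test, and 1 did so at an unadjusted p under 0.05. No share of all probe sets is given for dim levels. Changes of all probe sets were also smaller there, with a 5th percentile of -0.46 at means around 4.5 and -1.37 around 7.5. The bright set held 5 genes of the list and 5 others, both lists were drawn up with earlier results of these arrays known, and the division into bright and dim was made after the values were seen, so nothing is read from its count.

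**Figure D2:**
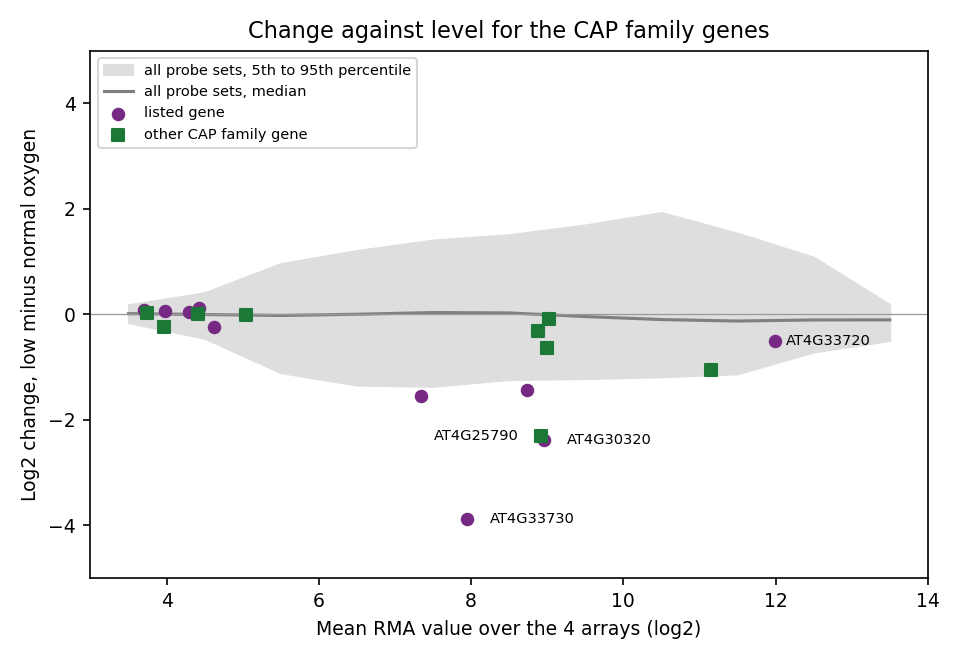
Log2 change at low oxygen (vertical axis) against the mean RMA value over the 4 arrays (log2, horizontal axis) for the 10 listed genes (purple circles) and 9 other CAP genes (green squares), over the median (line) and the middle of the distribution (grey, percentiles in the key) of all probe sets in steps of 1 log2 unit of level. The dim genes lie close to 0, and AT4G33730, AT4G30320, AT4G25790, AT4G31470 and PR-1-LIKE lie below the band. AT2G19980, with a change of -0.23, lies within the band as drawn between steps. It is below the 5th percentile of its own step, -0.16 at means around 3.5.

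Several of these genes are neighbours on a chromosome. Their order was taken from RefSeq's genes of TAIR10.1, which were used only for which genes adjoin. On chromosome 4, AT4G33710, AT4G33720 and AT4G33730 follow each other with 0 other protein-coding genes between them. Their log2 changes were 0.12, -0.51 and -3.89 in that order, and the values of the first stayed below 5 on all arrays. On chromosome 2, AT2G19970, AT2G19980 and PR-1-LIKE likewise adjoin. The outer genes of that row fell, with log2 changes of -1.06 and -1.43, and the middle one had a change of -0.23 that did not pass.

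On chromosome 4, AT4G25780 and AT4G25790 adjoin, with changes of -0.25, which did not pass, and -2.31. On chromosome 1, AT1G50050 and AT1G50060 adjoin, and both had changes within 0.1 of 0, -0.02 and -0.09. AT4G30320 and AT4G31470, which also fell, have 125 other protein-coding genes between them. Differences between neighbours were not tested. Related genes can share probe sequence, which the table of values does not show.

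**Figure D3:**
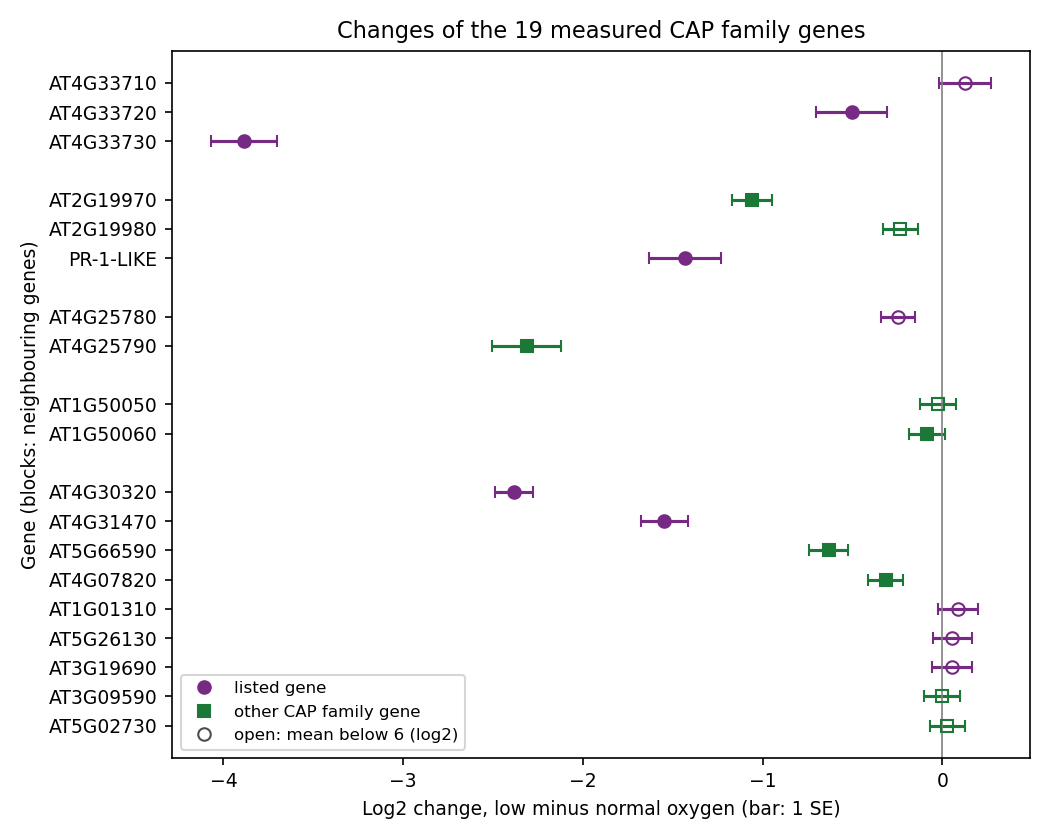
Log2 change at low minus normal oxygen (horizontal axis, bars 1 SE from the limma fit, 2 arrays per group) of the 19 measured CAP genes, with the 4 rows of adjoining genes in blocks at the top, purple for the 10 listed genes, green for the others, and open symbols for a mean below 6. Within the block of AT4G33710, AT4G33720 and AT4G33730 the changes are 0.12, -0.51 and -3.89.

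The genes whose 4 values ran most like those of AT4G33730 were named by the root mean square difference of log2 values after each probe set's own mean was taken off, over 4 arrays and 13512 other probe sets with a single named gene. GH9C1, an endoglucanase gene, was nearest, at 0.138. AT4G29700 followed at 0.167, then AT3G01260 at 0.2003 and AT4G11210, a dirigent-like gene, at 0.215. EXPA18, a root hair expansin gene, was at 0.237. All 5 had values above 9 on both normal oxygen arrays, and their log2 changes lay between -3.53 and -4.01. Of the CAP genes the nearest were AT4G30320 and AT4G25790, at ranks 55 and 60, with differences of 0.768 and 0.786. Such likeness is mostly that of the size of the fall.

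**Figure D4:**
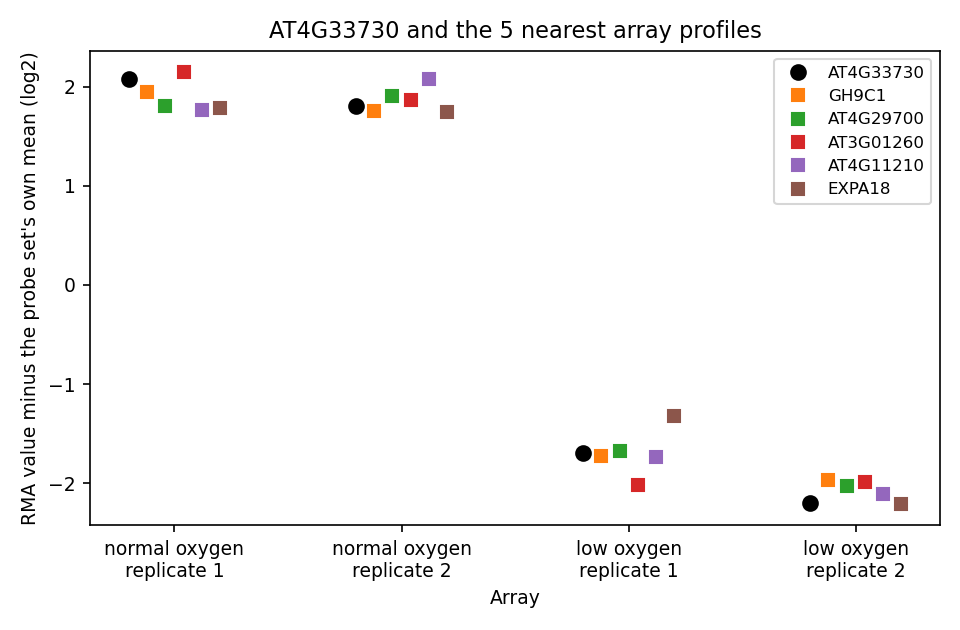
RMA values minus each probe set's own mean (log2, vertical axis) on the 4 arrays (horizontal axis) for AT4G33730 (black circles) and the 5 probe sets nearest to it (coloured squares). On the normal oxygen arrays all 6 lie above their mean, and on the low oxygen arrays all 6 lie below it.

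Genes listed as root hair markers, some of them genes of tip growth and wall loosening, were lower on the same arrays as the CAP genes that fell. Of 23 listed, 5 had a probe set that the probe table assigns to them alone. Of these, 5 of 5 fell, with a median log2 change of -2.50. Among all probe sets with a mean of at least 6, as all of these have, 24.6% were called lower. The list was chosen with earlier results of these arrays known, and EXPA18 is also one of the nearest profiles above. Nothing is therefore read from the count. The call of SCN1, a gene that limits where root hairs form (log2 change -0.41, limma adjusted p = 0.0195), named here after its values were seen, was lost when any array but normal oxygen replicate 2 was left out (adjusted p = 0.0612 to 0.1068). XTH26, a gene of a xyloglucan-modifying enzyme, had the largest change, from 10.39 and 10.24 to 6.43 and 5.47 (-4.37, limma adjusted p = 7.0e-05), and EXPA18 followed (-3.53, limma adjusted p = 1.2e-04). The summed linear level of the 5 was 10765 to 11686 at normal oxygen and 3479 to 4139 at low oxygen. AT4G26010, named for its weight in that sum, had the highest values of the 5. It read 12.66 and 12.57 at normal oxygen and 11.48 and 11.21 at low oxygen. No marker was at 0, as RMA values are not. The part of root hair cells in the fall of the CAP genes was not tested.

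Shoot photosynthesis markers, listed as possible signs of another tissue, moved the other way. Of 16 listed, 3 were measured and 3 of 3 rose, among them RCA of Rubisco activase by 1.31 and LHCB4.1 of a light-harvesting antenna by 0.76 (limma adjusted p = 5.9e-04 and 0.0041). Their summed linear level was 501 to 558 at normal oxygen and 910 to 1051 at low oxygen, and their part in the results was not tested. Core hypoxia genes, listed to describe the treatment, rose in 7 of 7 measured of 18 listed, with changes from 1.63 to 7.39. AT5G10040 (7.39) and AT2G17850 (5.42), both known to be induced by hypoxia, led them (limma adjusted p = 1.7e-05 and 2.3e-05). Of all probe sets 15.8% were called higher. Both lists were chosen with earlier results of these arrays known, so neither count is an independent check.

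Defence genes that are usually read together with PR1 gave little to compare. Of 24 genes of salicylic acid defence only SAG101, which encodes a lipase-like partner of the immune regulator EDS1, was measured. It rose by 0.62 (SE 0.11, limma adjusted p = 0.0043), from 4.33 and 4.43 to 4.92 and 5.07, values near the dim end throughout. Of 15 genes of other pathogenesis-related proteins and of jasmonate and ethylene defence, 4 were measured. In limma's test 0 of these 4 passed, and 0 did at an unadjusted p under 0.05.

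Among those 4, OSM34, an osmotin-like gene, was bright on every array, at 13.25 and 13.17 at normal oxygen and 13.32 and 13.49 at low oxygen. PDF1.2b, a defensin gene, was at 5.59 and 5.21 at normal oxygen and at 6.36 and 5.29 at low oxygen, so that 1 low oxygen array stood apart (limma adjusted p = 0.3982). Its probe set carries the suffix that Affymetrix gives to probes shared with other transcripts. PDF1.2, named here after its values were seen, read 5.20 and 4.99 at normal oxygen and 6.48 and 4.91 at low oxygen. Low oxygen replicate 1 was thus the array that stood apart for both PDF1.2 and PDF1.2b. Whether these are separate signals was not tested.

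Papain-like cysteine proteases were listed because XCP1, an enzyme of this class, is known to release the CAPE peptide from PR1. Of 16 listed, 5 were measured and XCP1 was not among them. AT3G19400 fell 3.05-fold, from 8.36 and 8.39 to 6.55 and 6.98 (log2 change -1.61, SE 0.15, limma adjusted p = 3.3e-04). AT3G45310, an aleurain-like protease gene, fell by 0.72 (SE 0.10, limma adjusted p = 0.0017). The other 3 did not pass, with changes between -0.14 and 0.09, and the median of the 5 was -0.14. None of these counts shows that a list differs from other genes, since the lists were chosen with earlier results of these data known. Of all probe sets 17.6% were called lower and 15.8% higher.

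**Figure D5:**
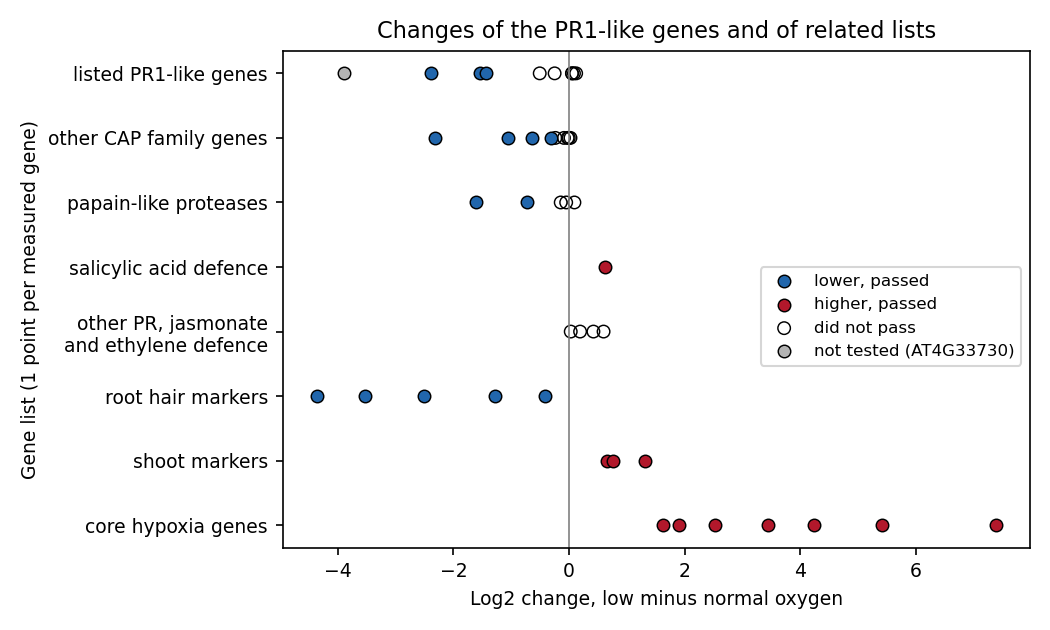
Log2 change at low minus normal oxygen (horizontal axis) of each measured gene of the listed PR1-like genes and of 7 related lists (vertical axis), filled blue or red where it passed limma's test as lower or higher, open where it did not, and grey for AT4G33730, which was not tested. Passing CAP genes and root hair markers lie left of 0, and core hypoxia genes right of it, from 1.63 to 7.39.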

How the data were processed

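The deposited values are log2 expression values per probe set. The submitters' processing notes name RMA and limma with no versions or settings; RMA corrects background, quantile-normalises arrays and summarises probes, so a change shared by all transcripts is not seen. After 64 control probe sets were left out, limma 3.58.1 (R 4.3.3) was run on 22746 (default prior, 2-sided, Benjamini-Hochberg over all of them, threshold 0.05). The fit had 2 residual and 4.63 prior degrees of freedom. SEs come from it. Symbols were updated through gene identifiers in the RefSeq table of TAIR10.1. Of the probe sets, 13513 had 1 gene in the probe table, 503 several and 8730 were not listed. Of the first, 13436 matched RefSeq. A gene is called measured where that table assigns a probe set to it alone. One that is not called measured may still have a probe set among those not listed.

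Groups follow the treatment labels. Replicates are separate pools, and no label pairs their numbers. Summed linear levels add 2 to the power of the RMA values, so the brightest probe sets weigh most in them.

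The members and lists were chosen with earlier results of these data known. Named were every listed gene, every other measured CAP gene, and of each further list the 2 largest calls per direction, or the 2 with the highest mean where none passed. The 5 nearest profiles were those with the smallest root mean square difference. The split at a mean of 6 was made after the values were seen.

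Alternatives changed the prior, normalization, replicate block, minimum level, threshold and arrays used. The test was run on data simulated with limma's own fitted prior and with far fewer changed probe sets than were called here. That run checks the code and does not bear on the calls. No sequences were used here.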

Additional observations from a re-analysis of the deposited data

How the results depend on the processing

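The count of 3 lower genes among the 9 tested members was 3 under 10 of 12 alternatives, and became 4 with a minimum mean of 6 in the higher group and without low oxygen replicate 1, as AT4G33720 then passed (adjusted p = 0.0448 and 0.0174). The change of AT4G33730 ran from -4.14 to -3.63 without single arrays. With the replicate block, 3 members passed, 3 of the other CAP genes did, since AT4G07820 was lost, and 6939 of 7593 probe sets in all. Same-numbered arrays did not deviate together (r = 0.02 across probe sets), so the block is no evidence of weaker changes. A fold of at least 2 left 2385 probe sets in all, 2 other CAP genes, 1 papain-like protease, 1 shoot marker and 0 salicylic acid genes. The minimum mean also left 0 of the latter, as SAG101 was then not tested. Without single arrays, the count of all calls ran from 5375 to 7001, with 1 array left in a group taken to be as variable as the other pair. The members' count ran from 3 to 4 there, and that of the other defence genes from 0 to 2. AT2G19980 passed only with a trended prior (adjusted p = 0.0462). No passing CAP gene changed sign under these alternatives, which is nearly sure beforehand for calls beyond the replicate spread. Alternatives for several probe sets per gene did not apply, since each member has 1. Signal over background limits the dim genes.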
